A study of Mus musculus with 6 samples.

Results

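Histones package DNA into nucleosomes, and chromatin modifiers, remodellers and readers set how open that packaging is. The genes described are those with a single symbol among the annotated probes whose names begin with the stems of the cluster histones H2A, H2B and H1 (and of some H2A variants), of histone deacetylases, demethylases, methyltransferases, SMARC and CHD remodellers, DNA methyltransferases, and CBX and ING readers, together with Ezh1, Ezh2 and Suz12. Kdm5c, Kdm5d and Kdm6a were left out by the rule. It gave 87 genes with 127 probes, of 7606 named genes in all, and all 87 were bright enough to be tested. By role they were 23 core histone genes, 3 linker histone genes, 2 H2A variants, 5 deacetylases, 12 demethylases and JmjC proteins, 15 methyltransferases, 1 DNA methyltransferase, 16 remodellers and 10 readers. Each gene was represented by its brightest probe.

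The arrays came from cultures of mouse embryonic fibroblasts, the connective-tissue cells that grow from a minced embryo, which the labels give as E13.5. There were 3 CypD knockout arrays and 3 wild-type arrays, each lettered A, B and C and all of C57BL/6 background, grown in the same medium. CypD is cyclophilin D, a mitochondrial isomerase encoded by Ppif. The labels do not say how many embryos, litters or cultures lie behind the arrays, so the p-values rest on the variation among 6 arrays, part or all of which may be technical.

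An octamer of histones H2A, H2B, H3 and H4 forms the core of a nucleosome, and histone H1 binds the DNA linking one nucleosome to the next. Most core histone genes stand in clusters, are copied during S phase, and give messages that end in a stem loop in place of a poly(A) tail. Marks on histone tails are written by methyltransferases and acetyltransferases, removed by demethylases and deacetylases, and read by domains such as those of CBX and ING proteins, while remodellers use ATP to move nucleosomes. The labelling kit named by the labels starts from poly(A) tails, so it is not known how much of each histone message the arrays read. Probe sequences were not used here. Many histone genes are near-identical copies, and whether a probe separates them was not tested, so the identity of each single H2A or H2B gene is uncertain.

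H2A and H2B genes often lie head to head and share the stretch between their start sites. Among the members, 5 such pairs on chromosome 13 had a measured H2A gene and a measured H2B gene with start sites 164 to 249 bases apart. The stretches between the start sites are shown because in 4 of the 5 pairs the H2A and H2B genes differed in their change without overlap between the groups, while in H2ac8/H2bc8 both fell. They are from RefSeq on GRCm38.p6, written on the plus strand, at chr13:22035644-22035820 for H2ac12/H2bc12, chr13:23574208-23574380 for H2ac7/H2bc7, chr13:21753913-21754075 for H2ac15/H2bc15, chr13:22042950-22043197 for H2ac11/H2bc11 and chr13:23571221-23571399 for H2ac8/H2bc8. Capitals mark every CCAAT, every TATAAA, the octamer element ATTTGCAT known from H2B promoters, and the element AAACACA known from H1 promoters, on either strand. How often other pairs of genes differ in their change without overlap between the groups was not computed. The elements and the sequences shown were chosen after the expression values had been seen, and no marked elements overlap.
H2ac12/H2bc12: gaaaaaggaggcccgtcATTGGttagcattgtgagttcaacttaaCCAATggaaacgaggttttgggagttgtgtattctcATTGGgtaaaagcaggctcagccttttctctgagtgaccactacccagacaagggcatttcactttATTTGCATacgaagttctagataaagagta
H2ac7/H2bc7: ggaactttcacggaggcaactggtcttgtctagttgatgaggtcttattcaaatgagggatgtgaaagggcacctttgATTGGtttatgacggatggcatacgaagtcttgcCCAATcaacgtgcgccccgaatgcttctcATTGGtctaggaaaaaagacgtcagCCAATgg
H2ac15/H2bc15: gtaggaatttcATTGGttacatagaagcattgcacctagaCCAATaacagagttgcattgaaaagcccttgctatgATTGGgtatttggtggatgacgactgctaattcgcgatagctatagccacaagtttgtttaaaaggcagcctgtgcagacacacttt
H2ac11/H2bc11: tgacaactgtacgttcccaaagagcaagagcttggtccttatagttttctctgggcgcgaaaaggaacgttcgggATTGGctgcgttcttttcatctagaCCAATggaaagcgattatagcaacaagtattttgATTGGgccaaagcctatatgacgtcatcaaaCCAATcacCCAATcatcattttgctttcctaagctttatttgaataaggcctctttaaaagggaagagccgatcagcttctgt
H2ac8/H2bc8: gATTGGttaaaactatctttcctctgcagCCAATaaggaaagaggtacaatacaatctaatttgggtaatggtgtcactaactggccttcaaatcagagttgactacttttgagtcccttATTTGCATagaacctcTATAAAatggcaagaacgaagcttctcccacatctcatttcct

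Each of these 5 stretches held CCAAT on one strand or the other, between 2 and 5 times. The octamer element was found once between H2ac12 and H2bc12 and once between H2ac8 and H2bc8. Of the members, 71 had a promoter entry. In windows of 250 bases before to 50 after the start site, CCAAT was present in 13 of 13 H2A and 8 of 8 H2B genes, against 37.4% of all 32851 promoters. TATAAA was present in 9 of 13 H2A and 4 of 8 H2B genes, against 13.6% of all promoters, and the octamer in 4 of 13 and 3 of 8, against 1.74%. These matches describe letters in a window and nothing about a bound factor. The windows of the 2 genes in each of the 5 pairs overlap, so the same letters can be counted for both genes.

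The genes H1f2 and H1f5 encode linker histones and are shown for their contrast in the results. The 150 bases before each start site are from RefSeq on GRCm38.p6, at chr13:23738657-23738806 on the plus strand for H1f2 and chr13:21780626-21780775 on the minus strand for H1f5, each written 5′ to 3′ along its gene and marked as above. Both hold 1 AAACACA, which was present on either strand in 7.18% of all promoter windows, and TATAAA occurs in the H1f5 stretch.
H1f2: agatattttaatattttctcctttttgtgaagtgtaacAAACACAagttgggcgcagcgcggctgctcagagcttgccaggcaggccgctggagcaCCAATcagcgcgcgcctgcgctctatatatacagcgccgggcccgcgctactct
H1f5: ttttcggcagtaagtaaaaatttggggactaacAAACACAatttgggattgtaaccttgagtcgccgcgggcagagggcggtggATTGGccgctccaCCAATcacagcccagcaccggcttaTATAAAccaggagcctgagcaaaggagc

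Ppif itself, the targeted gene, had log2 intensities of 12.25, 12.35 and 12.18 in knockout arrays, against 13.57, 13.70 and 13.62 in wild-type arrays. It fell but kept a signal. Where its probe lies relative to the deleted part is not known here, so the probe may check nothing. Of 15 fibroblast markers 11 were tested, of which 3 rose and 4 fell, so that 63.6% changed, against 43.6% of all named genes. Their log2 fold changes ran from -1.62 for S100a4 to 1.47 for Pdgfra. Their mean log2 intensity, in which such opposite changes cancel, was 11.07 to 11.20 over knockout arrays and 11.13 to 11.19 over wild-type arrays. Markers of other cell types with a tested probe numbered 2 of 11 for leukocytes, 2 of 9 for endothelium, 3 of 9 for epithelium, 3 of 9 for neural cells, 2 of 8 for skeletal muscle and 0 of 5 for erythroid cells. The neural markers Stmn2, Mbp and Nes fell, with a mean of 8.78 to 8.81 in knockout arrays and 10.32 to 10.44 in wild-type arrays. Leukocyte markers averaged 8.67 to 8.75 in knockout and 8.57 to 8.90 in wild type, and endothelial markers 8.98 to 9.17 in knockout and 8.89 to 9.11 in wild type. Epithelial markers averaged 8.61 to 8.76 in knockout and 8.54 to 8.66 in wild type, and skeletal muscle markers 7.92 to 7.93 in knockout and 8.11 to 8.40 in wild type. Within these means single markers changed. Endothelial Flt1 (0.44) and epithelial Spint1 (0.78) rose, and epithelial Krt19 (-0.35) and muscle Acta1 (-0.79) fell. Acta1 was at percentile 42.6 of the probes in knockout and 66.7 in wild type. Neural Mbp was at percentile 57.5 in knockout and 71.8 in wild type, so the folds of Acta1 and Mbp are uncertain. The other tested markers of leukocytes, endothelium, epithelium and muscle did not pass. The part of these markers in the results below was not tested. In bulk samples, fewer cells of a type and less RNA per cell cannot be told apart.

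Across all 87 chromatin genes, 20 rose and 16 fell in knockout cells and 51 did not pass the test (limma on normalized log2 intensities, adjusted p under 0.05 over all 27168 probes tested). Among all named genes tested, 43.6% changed, 21.8% upward and 21.8% downward, so the 41.4% of chromatin genes that changed was close to the background. The median log2 fold change, knockout over wild type, was 0.08 for the chromatin genes and 0.01 for all named genes. Changes were mostly small, with 5 of the 36 called genes reaching 2-fold. These were H2bc4, H1f2 and H2bc8, which fell, and Smarca1 and Smarcc1, which rose. In all 36 called genes the knockout and wild-type arrays did not overlap, as they also did not in 7 genes that missed the threshold. That made 43 of 87 genes, or 49.4%, against 56.1% of all named genes tested. Named probes are those of a deposited table that holds probes varying over the arrays, which raises the share of changed genes for members and background alike. Ezh1, Suz12, Dnmt1, Dnmt3a, Hdac1 and Smarca4 have no named probe and no value here.

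Core histone genes changed in opposite directions by type, with H2A genes mostly higher and H2B genes mostly lower in knockout cells. Of 13 H2A genes 7 rose, 2 fell and 4 did not pass, with a median log2 fold change of 0.22. Of 10 H2B genes 0 rose, 7 fell and 3 did not pass, with a median of -0.43. Together, 16 of 23 core histone genes changed, or 69.6%, against 43.6% of all named genes, and 14 of these 16 lie in the chromosome 13 cluster, where 19 were tested. Whether the probes of these near-identical genes give separate signals was not tested, so the counts may repeat the same signal. The difference between the H2A and H2B genes as groups was not tested.

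H2bc4, an H2B gene of the chromosome 13 cluster long known as Hist1h2bc, fell the most of all members. Its log2 intensity was 10.35, 10.33 and 10.34 in knockout arrays, against 12.81, 12.79 and 13.01 in wild-type arrays. The knockout arrays lay within a narrow band far below every wild-type array, and the log2 fold change was -2.53 ± 0.076 (SE, adjusted p = 2.32e-11), or 5.77-fold lower. H2bc8 had 7.94, 7.67 and 8.10 in knockout, against 9.12, 8.87 and 8.97 in wild type, and fell by 1.08 ± 0.12 (SE, adjusted p = 1.39e-05). The knockout signal of H2bc8 was as dim as the 68.7th percentile of the probes, and without detection values such a signal cannot be told from background, which leaves its fold uncertain.

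Smaller falls were seen for other H2B genes. H2bc9 gave 9.76, 10.03 and 9.93 in knockout, against 10.38, 10.47 and 10.50 in wild type, a log2 fold change of -0.54 ± 0.089 (adjusted p = 5.07e-04). H2bc7 gave 10.21, 10.45 and 10.30 in knockout, against 10.68, 10.91 and 10.83 in wild type, with -0.49 ± 0.090 (adjusted p = 0.00125). In both genes the arrays of the groups did not overlap. H2bc11, H2bc14 and H2bc15 also fell, by 0.43, 0.42 and 0.34 on the log2 scale. H2bc6, H2bc12 and H2bc21 did not pass by their brightest probes, which gave -0.09, 0.08 and 0.10. A dimmer probe of H2bc6 gave -0.61 (adjusted p = 2.74e-05) and one of H2bc12 gave -0.46 (adjusted p = 0.00212), so that the probes of these genes disagreed. The dimmer probe of H2bc21 gave 0.30 (adjusted p = 0.0799).

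Among H2A genes the rise was largest for H2ac21, a member of the smaller cluster on chromosome 3. It had 13.01, 12.92 and 13.08 in knockout arrays, against 11.77, 12.07 and 12.62 in wild-type arrays, a log2 fold change of 0.85 ± 0.15 (SE, adjusted p = 9.73e-04). The knockout arrays were close together, while the wild-type arrays were spread widely below them. H2ac12 had 13.81, 13.63 and 13.58 in knockout, against 12.83, 13.15 and 13.34 in wild type, with 0.56 ± 0.11 (adjusted p = 0.00144), and its second probe gave 0.59. H2ac10 had 15.70, 15.70 and 15.62 in knockout, against 15.17, 15.29 and 15.35 in wild type, with 0.40 ± 0.053 (adjusted p = 7.95e-05). Here too no knockout array reached down to a wild-type one.

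The other H2A genes that rose were H2ac7 (0.52), H2ac15 (0.48), H2ac22 (0.35) and H2ac13 (0.22). In 7 of the 7 H2A genes that rose, wild type A was the lowest and wild type C the highest of the wild-type arrays. Without wild type A, H2ac15 gave 0.31 and H2ac13 gave 0.14, and H2ac13 was no longer called (adjusted p = 0.111). The H2ac13 call was also lost without knockout B (adjusted p = 0.0638), without knockout C (adjusted p = 0.105), without the intensity trend (adjusted p = 0.147) and with median scaling (adjusted p = 0.192).

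H2ac8 went the other way from most H2A genes. It had 10.32, 10.23 and 10.16 in knockout arrays, against 10.99, 10.79 and 11.18 in wild-type arrays, and fell by 0.75 ± 0.098 (SE, adjusted p = 7.05e-05). H2ac18 of chromosome 3 fell by 0.37 ± 0.092 (adjusted p = 0.0102), a call lost without knockout A (adjusted p = 0.0533), and its second probe gave -0.92. That second probe was at percentile 59.1 of the probes in knockout, so its fold is uncertain. H2ac11, with 12.08, 12.00 and 11.97 in knockout against 11.45, 11.96 and 12.30 in wild type, did not pass (0.11 ± 0.15). Its groups overlapped because the wild-type arrays ran from below to above all knockout arrays. H2ac4, H2ac19 and H2ac1, the last a testis histone by its older name Th2a, had 0.20, -0.21 and -0.15 and did not pass either.

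**Figure D1:**
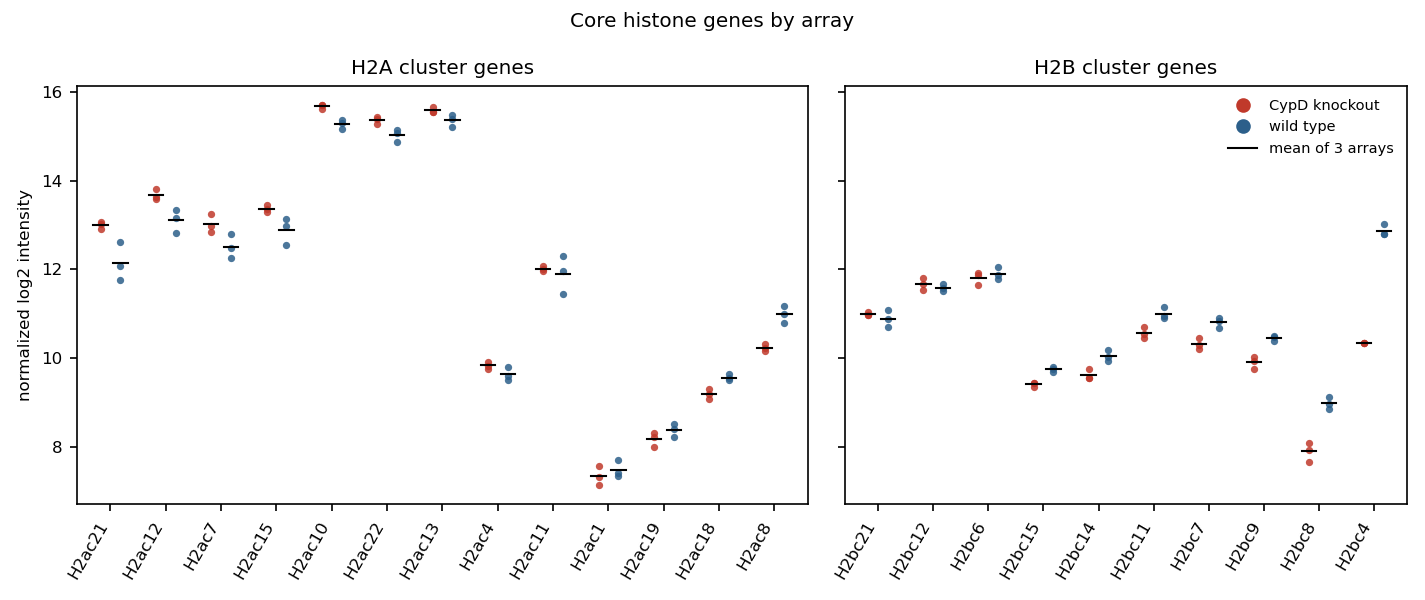
Normalized log2 intensity of 13 H2A and 10 H2B cluster genes on each array, with CypD knockout points left of wild-type points for each gene and a bar at the mean of 3 arrays. Genes run from the highest to the lowest log2 fold change, from 0.85 for H2ac21 to -0.75 for H2ac8 among H2A genes and from 0.10 for H2bc21 to -2.53 for H2bc4 among H2B genes.

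The direction of change of the H2A and H2B genes also went with the brightness of the probe. The 7 genes that rose had knockout means of 13 to 15.67 and wild-type means of 12.15 to 15.36, while the 9 that fell had knockout means of 7.90 to 10.57 and wild-type means of 8.99 to 12.87. Intensities of different probes do not rank the genes by amount. H2ac8 and H2ac18, the H2A genes that fell, had wild-type means of 10.99 and 9.56, within the range of the H2B genes. Outside the rule, H3c10 rose with means of 9.38 in knockout and 8.77 in wild type, as dim as the genes that fell. H3c4 and H3c7, which also rose, had knockout means of 12.35 and 11.83. The H4 genes that fell, H4c6, H4c9 and H4c1, had knockout means of 8.905, 9.348 and 11.04. Among core histone genes with a second probe, the dimmer probe gave the lower log2 fold change for H2bc6, H2bc12 and H2ac18. It gave the higher one for H2bc21 and H2ac12. The part of probe brightness in the result was not tested.

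**Figure D2:**
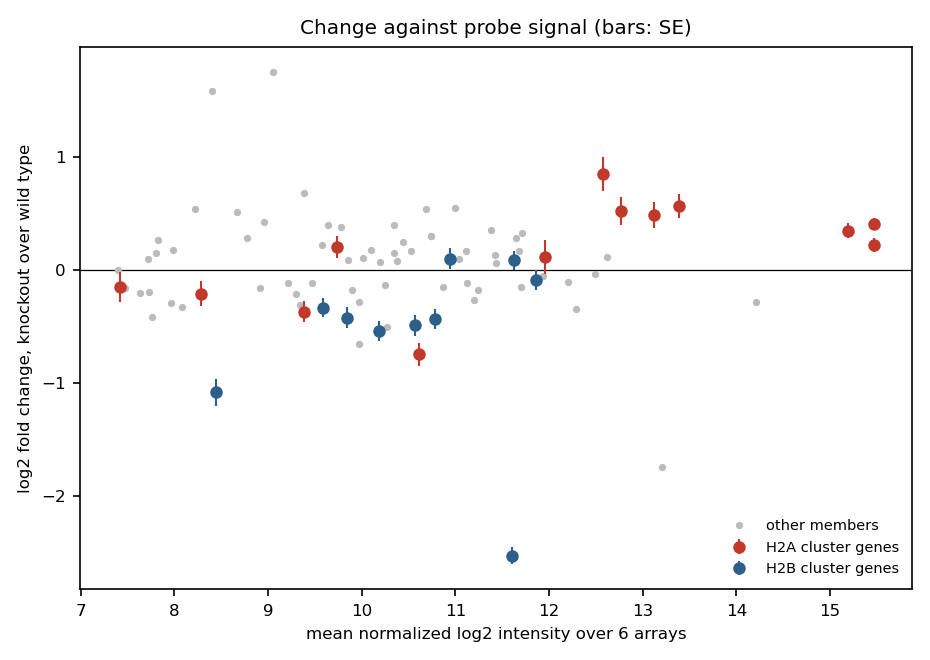
Log2 fold change (knockout over wild type) against the mean normalized log2 intensity over 6 arrays, for H2A and H2B cluster genes (bars SE) and the other members (no bars). The H2A genes that rose lie at the right, with wild-type means from 12.15 upward, and H2bc4 lies lowest at -2.53.

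In the 5 head-to-head pairs the H2A gene had the higher log2 fold change each time. In H2ac7/H2bc7 the H2A gene rose (0.52 ± 0.12) and the H2B gene fell (-0.49 ± 0.090), a difference of 1.01. In H2ac15/H2bc15 the H2A gene rose (0.48 ± 0.11) and the H2B gene fell (-0.34 ± 0.083), a difference of 0.82. In H2ac12/H2bc12 and H2ac11/H2bc11 1 gene of the pair passed the test, and the differences were 0.48 and 0.54. H2ac8/H2bc8 was the pair in which both fell, by 0.75 and 1.08, a difference of 0.33. The within-pair difference was higher in every knockout array than in every wild-type array for 4 of the 5 pairs, each with an exact permutation p of 0.1 (two-sided), the smallest that 3 arrays against 3 allow; for H2ac8/H2bc8 the groups overlapped (p = 0.2). The pairs were formed after the values had been seen, and adjustment over 5 pairs would raise these p-values further. For single genes, the groups did not overlap in 56.1% of all named genes tested. The share among other pairs of genes was not computed, so the count of 4 has no background beside it.

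**Figure D3:**
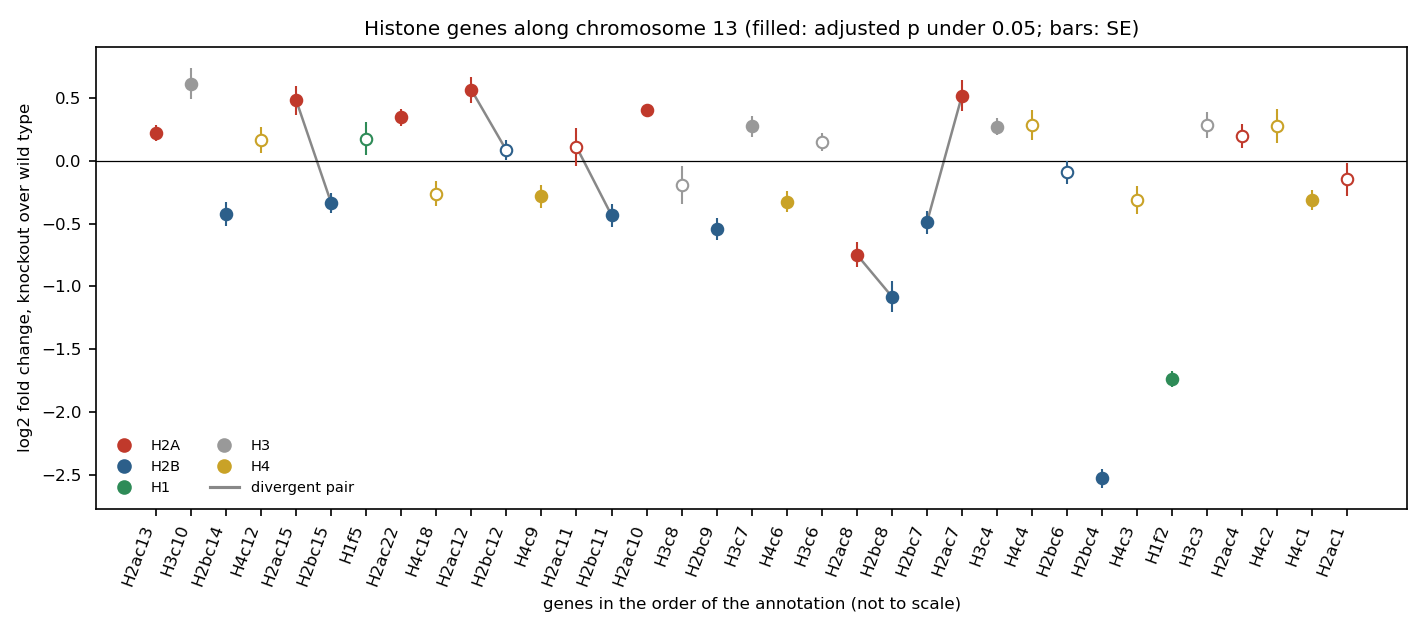
Log2 fold change (knockout over wild type, bars SE) of histone genes in their order along chromosome 13, with filled points for genes called at an adjusted p under 0.05 and lines joining the 5 divergent H2A and H2B pairs. H3 and H4 genes are not members and are drawn for the neighbourhood. H2bc4 at -2.53 and H1f2 at -1.74 are the lowest points, and of their neighbours H2bc6 had -0.09, H4c3 -0.31 and H3c3 0.29.

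H3 and H4 genes of the clusters lie outside the rule, and their list was added after the data had been seen. For H3, 3 of 6 rose and 0 fell. For H4, 0 of 9 rose and 3 fell. Together 40% changed, close to the 43.6% of all named genes. The H3 genes that rose were H3c10 (0.61 ± 0.13), H3c4 (0.27) and H3c7 (0.27), and the H4 genes that fell were H4c6 (-0.33), H4c1 (-0.31) and H4c9 (-0.28). H3f3a, which encodes the replacement histone H3.3 used outside S phase, had 0.03 ± 0.071 and did not pass.

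Cluster histones are normally expressed with other genes of S phase. Of 24 listed genes 17 were tested, of which 6 rose (Pcna by 0.50), 1 fell (Dut, by 0.50) and 10 did not pass. The share that changed, 41.2%, was close to the 43.6% of all named genes. Their mean log2 intensity was 11.50 to 11.58 over knockout arrays and 11.43 to 11.47 over wild-type arrays. Over the same arrays the mean of the 13 H2A genes was 11.99 to 12.10 in knockout and 11.68 to 12.08 in wild type, and that of the 10 H2B genes 10.20 to 10.30 in knockout and 10.78 to 10.93 in wild type. The knockout arrays lay above the wild-type arrays for the S-phase list, overlapped them for the H2A genes and lay below them for the H2B genes. The part of S-phase genes in the result was not tested. Of 10 tested factors of histone message synthesis and turnover, 0 rose, 1 fell and 9 did not pass, so that 10% changed, against 43.6% of all named genes. The 1 that fell was Eri1, an exonuclease that acts on the stem loop of histone messages, with a mean of 8.05 in knockout and 9.43 in wild type and a log2 fold change of -1.39 ± 0.091 (adjusted p = 6.53e-08). Its knockout signal, at percentile 70.1 of the probes, was too dim to tell from background, so the fold is uncertain.

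Among linker histones, H1f2 fell strongly and H1f5 and H1f10 did not pass. H1f2, long known as Hist1h1c, is a main H1 of somatic cells. It had 12.26, 12.39 and 12.33 in knockout arrays, against 14.02, 14.09 and 14.09 in wild-type arrays. The groups were far apart and each was tight, and the log2 fold change was -1.74 ± 0.060 (SE, adjusted p = 8.58e-11), or 3.34-fold lower; the second probe gave -1.66 (adjusted p = 1.58e-09). H1f5 had 8.07, 8.06 and 8.10 in knockout, against 7.69, 7.78 and 8.22 in wild type (0.18 ± 0.13), and H1f10 had 10.90, 10.91 and 10.86 in knockout, against 10.24, 10.64 and 10.89 in wild type (0.30 ± 0.13). In both genes wild type C was the highest wild-type array. Without it H1f5 passed at 0.34 (adjusted p = 0.0275) and H1f10 at 0.45 (adjusted p = 0.0039). H1f5 was at percentile 70.4 of the probes in knockout and 68.6 in wild type, too dim to tell from background, so its fold is uncertain.

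Of the H2A variants, H2ax fell and H2aj did not pass. H2ax encodes the variant that is phosphorylated at DNA breaks. It had 12.11, 12.16 and 12.08 in knockout arrays, against 12.39, 12.50 and 12.50 in wild-type arrays, and fell by 0.35 ± 0.065 (SE, adjusted p = 0.0016). H2aj had 9.68, 9.77 and 9.60 in knockout, against 9.52, 9.41 and 9.47 in wild type. Its groups did not overlap, but the log2 fold change of 0.22 ± 0.086 did not pass (adjusted p = 0.0971), whereas its dimmer probes did, at 0.34 and 0.53. The probe at 0.53 was at percentile 71.7 of the probes in knockout and 66.5 in wild type, so its fold is uncertain.

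**Figure D4:**
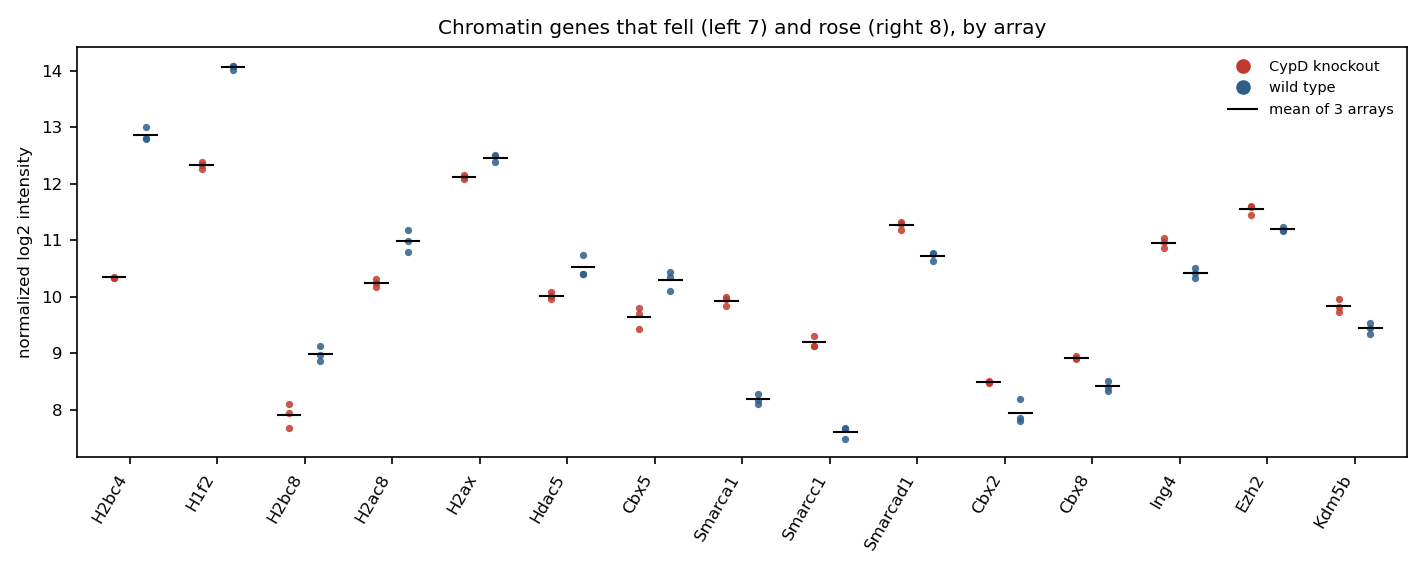
Normalized log2 intensity on each array of 7 chromatin genes that fell (left) and 8 that rose (right), with CypD knockout points left of wild-type points and a bar at the mean of 3 arrays. No knockout array overlaps a wild-type array in any of these genes, and the widest gaps are those of H2bc4, H1f2, Smarca1 and Smarcc1.

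Of 16 remodellers 5 rose, 0 fell and 11 did not pass. The share that changed was 31.2%, against 43.6% of all named genes, of which 21.8% rose and 21.8% fell. Smarca1 encodes an ATPase of the ISWI family, which slides and spaces nucleosomes. It had 10.00, 9.96 and 9.83 in knockout arrays, against 8.10, 8.28 and 8.16 in wild-type arrays, a log2 fold change of 1.75 ± 0.092 (SE, adjusted p = 7.26e-09), or 3.37-fold higher. Smarcc1 encodes a scaffold subunit of the SWI/SNF (BAF) complexes. It had 9.31, 9.13 and 9.14 in knockout, against 7.67, 7.66 and 7.49 in wild type, with 1.58 ± 0.10 (adjusted p = 4.78e-08), or 2.99-fold higher. Both rises stand clear of the spread between arrays. In wild type Smarca1 was at percentile 71.2 and Smarcc1 at percentile 64.7 of the probes, too dim to tell from background, so both folds are uncertain. Each gene had 1 probe.

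Smarcad1, an SNF2-family remodeller that acts at newly copied chromatin, had 11.28, 11.32 and 11.19 in knockout, against 10.63, 10.78 and 10.75 in wild type (0.55 ± 0.077, adjusted p = 1.35e-04). The chromodomain helicase gene Chd6 had 9.10, 9.22 and 9.17 in knockout, against 8.78, 8.68 and 8.77 in wild type (0.42 ± 0.088, adjusted p = 0.00333). Chd2, of the same family, had 10.49, 10.67 and 10.45 in knockout, against 10.11, 10.10 and 10.21 in wild type (0.40 ± 0.085, adjusted p = 0.00403). No groups overlapped in these genes, though the dimmer probe of Chd2 gave 0.22 and did not pass (adjusted p = 0.341).

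Other remodeller genes did not pass. Smarce1, the HMG-box subunit of SWI/SNF, had 12.05, 12.17 and 12.23 in knockout, against 12.28, 12.58 and 11.92 in wild type (-0.11 ± 0.12), and without wild type C it fell by 0.28 (adjusted p = 0.0351). Chd4, the ATPase of the NuRD complex, had 11.82, 11.89 and 12.01 in knockout, against 11.93, 11.78 and 12.16 in wild type (-0.05 ± 0.092). The pseudogene Smarca5-ps, which may share sequence with Smarca5, had -0.04 ± 0.16, with knockout A above all other arrays, and without that array it was called at -0.31 (adjusted p = 0.0163). Smarca5 itself had 0.16, and the remodellers that did not pass ranged from -0.18 to 0.28. The SWI/SNF gene Smarcd3 was the nearest to the threshold among them, with 0.28 ± 0.098 (adjusted p = 0.0584) and groups that did not overlap. Smarca2, Smarcal1, Smarcc2, Chd1, Chd8 and Chd1l also did not pass, but a dimmer probe of Chd1 fell by 0.45 (adjusted p = 0.00865).

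Of 32 tested partners of remodelling and corepressor complexes, 4 rose, 6 fell and 22 did not pass. In this list 31.2% changed, against 43.6% of all named genes. Bcl7a, a SWI/SNF subunit, had means of 11.49 in knockout and 10.89 in wild type, with 0.60 ± 0.079 (adjusted p = 7.34e-05). Phf10, a subunit of the PBAF form of SWI/SNF, had means of 13.79 in knockout and 14.20 in wild type, with -0.41 ± 0.059 (adjusted p = 1.68e-04). Of other SWI/SNF subunits in the same list, named after their values were seen, Pbrm1 rose by 0.23 ± 0.065 (adjusted p = 0.0206) and Ss18 fell by 0.29 ± 0.074 (adjusted p = 0.0115). Arid1a, Arid1b, Arid2, Brd7, Bcl7c, Actl6a and Actl6b did not pass, with log2 fold changes from -0.166 (Arid2) to 0.155 (Brd7).

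Among 5 histone deacetylases, Hdac5 fell and 4 did not pass, so that 20% changed, against 43.6% of all named genes. Hdac5 encodes a class IIa deacetylase that moves between nucleus and cytoplasm. It had 9.95, 10.08 and 10.01 in knockout arrays, against 10.40, 10.41 and 10.74 in wild-type arrays, and fell by 0.50 ± 0.099 (SE, adjusted p = 0.00217), with -0.45 by its second probe. Hdac6, which deacetylates tubulin in the cytoplasm, had 8.97, 9.38 and 9.21 in knockout, against 9.33, 9.47 and 9.68 in wild type (-0.31 ± 0.12, adjusted p = 0.0917). Hdac10 and Hdac8 had -0.21 ± 0.095 and -0.19 ± 0.12. Hdac2, a class I deacetylase of several corepressors, had 7.73, 7.80 and 7.76 in knockout, against 7.90, 7.42 and 7.67 in wild type (0.10 ± 0.12). Its groups overlapped, and its signal lay at the 67th percentile of all probes in knockout.

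Among acetyltransferases and bromodomain proteins outside the rule, 2 of 12 tested rose, 1 fell and 9 did not pass. Thus 25% changed, against 43.6% of all named genes. Kat6b, a MYST-family acetyltransferase, rose by 0.52 ± 0.077 (adjusted p = 2.04e-04), with means of 10.63 in knockout and 10.11 in wild type. Ep300, the p300 acetyltransferase, fell by 0.51 ± 0.095 (adjusted p = 0.00138), with means of 11.04 in knockout and 11.55 in wild type.

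Of 12 demethylases and other JmjC proteins 1 rose, 2 fell and 9 did not pass. The share that changed was 25%, against 43.6% of all named genes. Kdm5b, which removes methyl groups from lysine 4 of histone H3, had 9.96, 9.73 and 9.83 in knockout arrays, against 9.54, 9.45 and 9.35 in wild-type arrays (0.39 ± 0.093, adjusted p = 0.00732). Its other probes gave 0.97 (adjusted p = 3e-06) and 0.01, so the size of its rise depends on the probe. Jmjd6, a lysyl hydroxylase, had 14.09, 14.11 and 14.00 in knockout, against 14.36, 14.42 and 14.28 in wild type, and fell by 0.29 ± 0.057 (adjusted p = 0.00225). Kdm4c, a demethylase of lysine 9 of histone H3, had 9.77, 9.87 and 9.86 in knockout, against 10.14, 10.18 and 10.03 in wild type (-0.28 ± 0.082, adjusted p = 0.0257). The Kdm4c call was lost without knockout A, B or C (adjusted p = 0.0989, 0.0589 and 0.0644) and without wild type A or B (adjusted p = 0.0828 and 0.0901).

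The demethylases that did not pass ranged from -0.42 to 0.18. Of those with the brightest probes, Kdm4b had 0.17 ± 0.073, Kdm2a -0.15 ± 0.080 and Kdm3a, a demethylase induced by hypoxia, 0.06 ± 0.090. The lowest was Kdm5a (-0.42 ± 0.28), with 7.94, 7.31 and 7.41 in knockout, against 8.47, 8.34 and 7.10 in wild type, and wild type C below all other arrays. Its other probes gave 0.08 and 0.40, and the last of these passed (adjusted p = 0.0276). The probe that passed was at percentile 59.8 of the probes in knockout and 44.2 in wild type, too dim to tell from background. Kdm1b, Kdm2b, Kdm4a, Kdm6b and Kdm8 also did not pass.

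Of 15 methyltransferases 3 rose, 0 fell and 12 did not pass. The share that rose was 20%, close to the 21.8% of all named genes. The share that changed was also 20%, against 43.6% of all named genes. Ezh2, the catalytic subunit of the Polycomb repressive complex that methylates lysine 27 of histone H3, had 11.61, 11.45 and 11.58 in knockout arrays, against 11.17, 11.19 and 11.24 in wild-type arrays. It rose by 0.35 ± 0.073 (SE, adjusted p = 0.00337), with a dimmer probe at 0.17 that did not pass (adjusted p = 0.351). Setd5, a SET-domain protein, had 9.57, 9.67 and 9.93 in knockout, against 9.47, 8.55 and 9.11 in wild type (0.68 ± 0.18, adjusted p = 0.0151). Its wild-type arrays were spread over a wide range, its value without wild type B was 0.43, and its call was lost without knockout C (adjusted p = 0.0789). Setd6, which methylates the NF-kB subunit RelA, had 11.61, 11.90 and 11.86 in knockout, against 11.54, 11.48 and 11.50 in wild type (0.28 ± 0.082, adjusted p = 0.0257), and its second probe gave 0.33. The Setd6 call by the brightest probe was lost without knockout B (adjusted p = 0.132), knockout C (adjusted p = 0.111), wild type A (adjusted p = 0.052) or wild type B (adjusted p = 0.0743), with median scaling (adjusted p = 0.0563) and without the intensity trend (adjusted p = 0.0722).

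The lysine 4 methyltransferases of the MLL and SET1 kind did not pass. Setd1b had 12.59, 12.77 and 12.67 in knockout, against 12.59, 12.63 and 12.48 in wild type (0.11 ± 0.070), and Kmt2d had -0.12 ± 0.092. Kmt2a, Kmt2b, Kmt2c and Setd1a lay between -0.14 and 0.09, with overlapping groups. Kmt5a, which methylates lysine 20 of histone H4, had 0.13 ± 0.12 by its brightest probe, while another probe fell by 0.35 (adjusted p = 0.00575). Kmt5c, of the same substrate, was the nearest to the threshold (0.25 ± 0.084, adjusted p = 0.0541). Kmt2e (0.30), Kmt5b (-0.29), Setd2 (-0.12) and Setd7 (-0.16) did not pass. The only DNA methyltransferase with a named probe, Dnmt3b, which sets new methylation, had 10.67, 10.69 and 10.45 in knockout, against 10.37, 10.48 and 10.47 in wild type, and did not pass (0.16 ± 0.086, adjusted p = 0.235).

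Of 11 tested readers, removers and other factors of DNA methylation, 2 rose, 2 fell and 7 did not pass. In this list 36.4% changed, against 43.6% of all named genes. Tet1, which oxidises methylated cytosine, had means of 8.23 in knockout and 7.21 in wild type, with 1.02 ± 0.11 (adjusted p = 1.38e-05), at percentile 71.6 of the probes in knockout and 54.5 in wild type, so its fold is uncertain. Mbd1, which binds methylated DNA, had means of 11.13 in knockout and 11.74 in wild type, with -0.61 ± 0.073 (adjusted p = 3.43e-05). Of 23 other writers and erasers, 2 rose, 2 fell and 19 did not pass, so that 17.4% changed, against 43.6% of all named genes. Smyd3, a lysine methyltransferase, rose by 0.69 ± 0.10 (adjusted p = 1.84e-04), with means of 8.18 in knockout and 7.49 in wild type. Smyd3 was at percentile 71.2 of the probes in knockout and 62.5 in wild type, so its fold is uncertain too. Riox2, a JmjC oxygenase, fell by 0.38 ± 0.079 (adjusted p = 0.00299), with means of 10.87 in knockout and 11.26 in wild type.

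**Figure D5:**
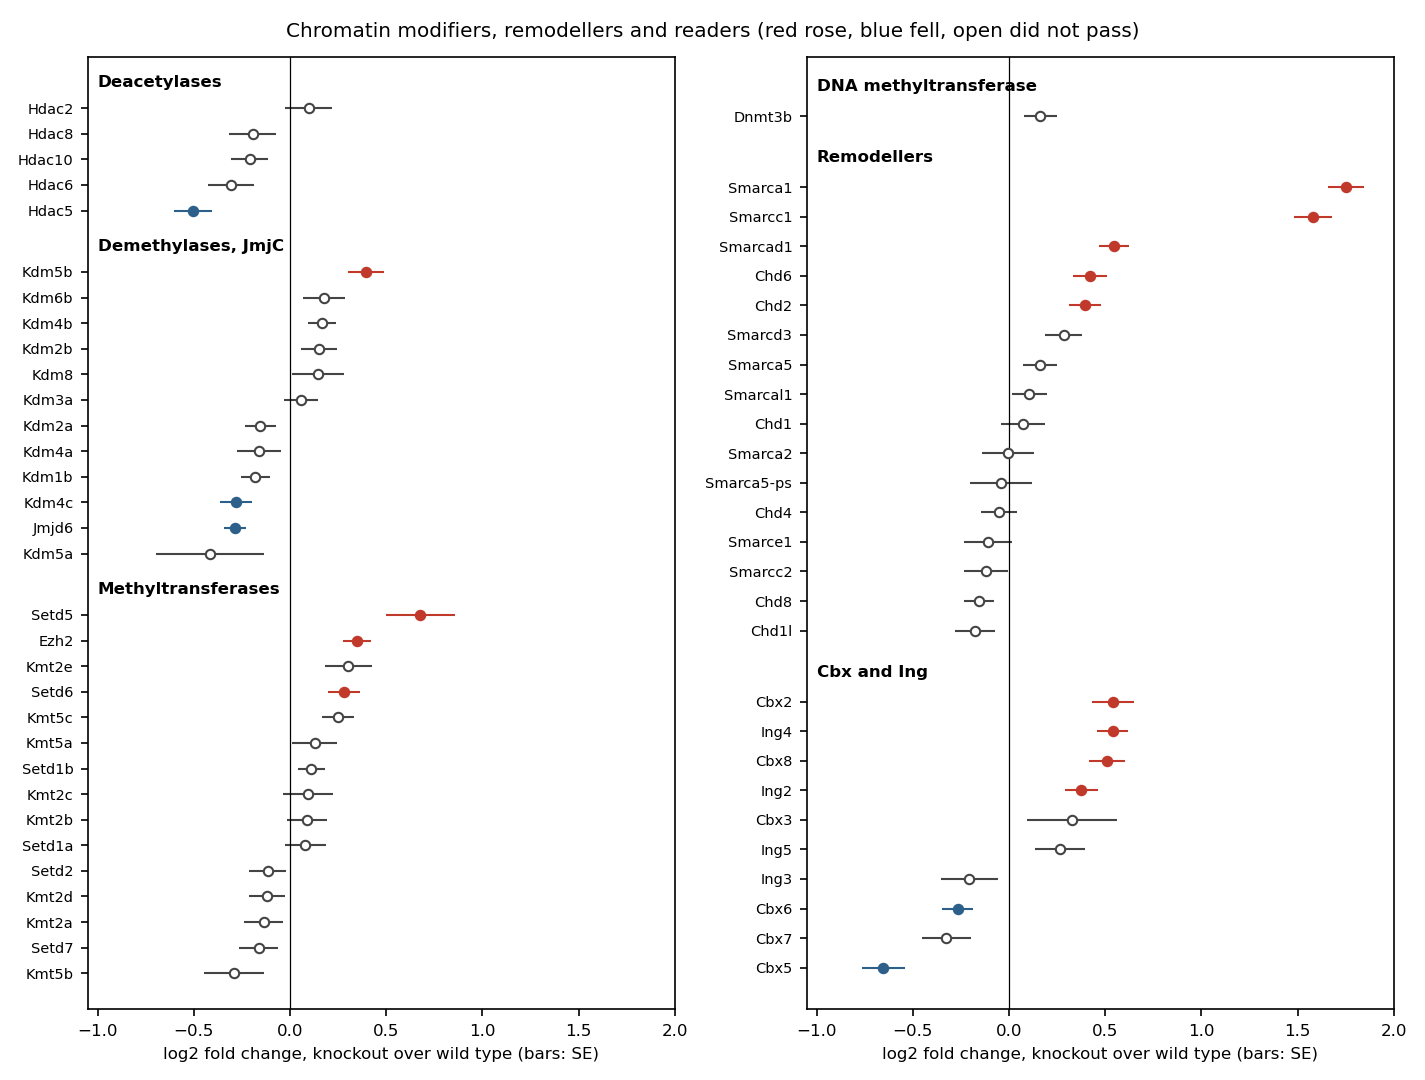
Log2 fold change (knockout over wild type, bars SE) of 59 deacetylases, demethylases, methyltransferases, remodellers and readers, grouped by role, with red for genes that rose, blue for genes that fell and open points for genes that did not pass. In all, 13 rose and 5 fell, so that 30.5% changed, against 43.6% of all named genes. Smarca1 (1.75) and Smarcc1 (1.58) lie farthest from 0.

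Of 10 readers of histone marks 4 rose, 2 fell and 4 did not pass. The share that changed was 60%, against 43.6% of all named genes. Cbx2 and Cbx8 are Polycomb proteins that bind methylated histone H3. Cbx2 had 8.47, 8.51 and 8.49 in knockout arrays, against 7.81, 7.86 and 8.18 in wild-type arrays (0.54 ± 0.11, adjusted p = 0.00296). Cbx8 had 8.92, 8.89 and 8.95 in knockout, against 8.40, 8.33 and 8.51 in wild type (0.51 ± 0.092, adjusted p = 0.00108). Both rose with tight knockout arrays above all wild-type arrays. Cbx2 was at percentile 69.1 of the probes in wild type, too dim for a certain fold.

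Other Polycomb CBX genes did not rise. Cbx6 had 10.97, 11.20 and 11.01 in knockout, against 11.32, 11.36 and 11.30 in wild type (-0.27 ± 0.078, adjusted p = 0.0268). The Cbx6 call was lost without knockout A or C (adjusted p = 0.116 and 0.105), without wild type A or B (adjusted p = 0.0664 and 0.0838) and without the intensity trend (adjusted p = 0.0649). Cbx7 had 7.67, 7.91 and 8.18 in knockout, against 8.11, 8.27 and 8.36 in wild type (-0.33 ± 0.13, adjusted p = 0.1), and passed without knockout C (-0.45, adjusted p = 0.0315). Cbx7 was at percentile 68.8 of the probes in knockout and 71.7 in wild type, so its fold is uncertain. Cbx7 and Cbx2 differ in direction, but neither this nor any other difference between CBX genes was tested.

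Cbx5 (HP1 alpha) and Cbx3 (HP1 gamma) encode heterochromatin proteins of the CBX group. Cbx5 had 9.80, 9.70 and 9.42 in knockout arrays, against 10.34, 10.44 and 10.10 in wild-type arrays, and fell by 0.65 ± 0.11 (SE, adjusted p = 8.06e-04). Cbx3 had 12.05, 11.82 and 11.77 in knockout, against 11.93, 11.98 and 10.75 in wild type (0.33 ± 0.23). Cbx3 overlapped between the groups, and wild type C was far below the other arrays.

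The ING proteins bind methylated lysine 4 of histone H3 and bring acetylating or deacetylating complexes. Ing4, part of an acetyltransferase complex, had 10.86, 11.04 and 10.97 in knockout, against 10.33, 10.41 and 10.51 in wild type (0.54 ± 0.082, adjusted p = 2.72e-04). All 3 of its probes rose, the others by 0.44 and 0.39. Ing2, part of the Sin3 deacetylase complex, had 9.97, 10.01 and 9.91 in knockout, against 9.71, 9.58 and 9.48 in wild type (0.38 ± 0.087, adjusted p = 0.0069). Ing5 had 0.27 ± 0.13 and did not pass, though it did without wild type C (0.38, adjusted p = 0.0361), and Ing3 had -0.21 ± 0.15. Ing5 was at percentile 69.3 of the probes in knockout and 66.1 in wild type, so its fold is uncertain.

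Of 19 tested Polycomb and Trithorax partners outside the rule, 6 rose, 1 fell and 12 did not pass. In this list 36.8% changed, against 43.6% of all named genes, of which 21.8% rose and 21.8% fell. Phc1, a subunit of the first Polycomb complex, had means of 12.23 in knockout and 11.71 in wild type (0.52 ± 0.070, adjusted p = 8.37e-05). Rnf2, the ubiquitin ligase of that complex, had means of 9.38 in knockout and 8.86 in wild type (0.53 ± 0.091, adjusted p = 8.05e-04). The other genes that rose were Pcgf1, Men1, Ring1 and Pcgf6, of which Men1 belongs to MLL complexes, and the gene that fell was Cxxc1, a subunit of SET1 complexes (-0.27). Eed, the partner of Ezh2, had 0.15 ± 0.069, and Bmi1 had 0.01 ± 0.15, and neither passed.

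Of 9 tested histone chaperones and H3 variants, 2 rose, 0 fell and 7 did not pass. In this list 22.2% changed, against 43.6% of all named genes. Chaf1b, a subunit of chromatin assembly factor 1, rose by 0.29 ± 0.063 (adjusted p = 0.00477), with means of 13.01 in knockout and 12.72 in wild type. Nap1l1, which carries H2A and H2B, rose by 0.25 ± 0.071 (adjusted p = 0.0227), a call lost without knockout A or C or wild type C (adjusted p = 0.107, 0.0669 and 0.0711), with median scaling (adjusted p = 0.218) and without the intensity trend (adjusted p = 0.119). Of 10 tested HMG and architectural proteins, 2 rose, 2 fell and 6 did not pass. Here 40% changed, close to the 43.6% of all named genes. Hmgn5, a nucleosome-binding protein, fell by 0.65 ± 0.077 (adjusted p = 2.75e-05), and Hmga2, an architectural protein of embryonic cells, rose by 0.48 ± 0.097 (adjusted p = 0.00249). Hmga2 was at percentile 71.9 of the probes in knockout and 67.3 in wild type, so its fold is uncertain. Over all 124 tested genes of the lists outside the rule, 20 rose and 15 fell, or 28.2% changed, against 43.6% of all named genes.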

How the data were processed

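Total RNA of 6 samples was labelled and hybridised to Illumina bead arrays of 45281 probes. The authors deposited linear probe intensities per array, read with BeadStudio 3.0 per the submitters' processing notes, without detection p-values or control probes. They also deposited a processed table of 12534 probes, whose intensities were 0.988 times the quantile-normalized values at the median; every listed probe varied at least 1.20-fold over the arrays. Gene names exist for those probes only. Of them 10653 had 1 symbol, 5 several and 1876 none, and 10643 got a current symbol through Entrez identifiers in RefSeq (GRCm38.p6).

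Intensities were corrected with normexp (offset 50), log2-transformed and then quantile-normalized (limma 3.58.1, R 4.3.3). Probes above the 40th percentile of mean log2 intensity were kept (27168) and fitted with lmFit and eBayes with an intensity trend, without a block. P-values are two-sided, with Benjamini-Hochberg adjustment over all probes kept; SEs are limma's. The offset by itself shrinks changes of dim probes, and precision is limited by the 3 arrays per group. The correction as a whole need not shrink them. The dim H2bc8 had a log2 fold change of -1.08 with it and -0.85 without background correction. The procedure was tested on simulated data with changes placed on brighter probes only; it missed more of the smaller changes than of the larger ones and made some false calls, so a gene that did not pass may still have changed. Array medians were 226 to 229 in knockout and 223 to 251 in wild type.

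Members and lists were chosen with earlier results of these data known. Genes described singly are fixed names (the Polycomb, DNA methyltransferase, deacetylase and SWI/SNF genes listed in the text), in each role at most 8 that were called, by lowest p, and 3 that were not, by highest signal, and up to 2 called genes of each outside list. Further genes, among them those of the histone pairs, were named after their values were seen. Alternatives were no background correction, median scaling, no filter, a filter at the 70th percentile, no trend, array weights, a replicate block, the processed table, the probe of highest variance, and leaving out each array. Several probes were tested for 30 of the 87 genes; for 9 genes they differed in passing the test.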

Additional observations from a re-analysis of the deposited data

How the results depend on the processing

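The counts of chromatin genes that rose and fell stayed within 1.5 times 20 and 16 under all 15 alternatives. Of the 36 called genes, 29 kept call and direction under every alternative that tested them; the other 7 (Kdm4c, Setd5, Setd6, Cbx6, Chd2, H2ac13 and H2ac18) are given with their values in the results. The count of H2B genes that fell was 7 to 9 and that of H2A genes that rose 6 to 8, with 0 H2B genes rising in any alternative. Leaving out each array gave 18 to 25 genes that rose and 14 to 19 that fell. With the probe of highest variance in place of the brightest, H2bc12 turned to -0.46 (adjusted p = 0.00212) and Kmt5a to -0.35 (adjusted p = 0.00575), from brightest-probe values that had not passed; these are other probes of the same genes.

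The letters A, B and C did not pair the arrays: deviations from the group means correlated at 0.101, -0.0899 and 0.0753 for the same letters. With the letter as a replicate block, 21 genes rose and 17 fell; Cbx7, which had not passed, was called (-0.33, adjusted p = 0.048). Median scaling put the median log2 fold change of all probes at -0.013 and left 18 genes up and 16 down. Among all named genes it called 18.5% up and 24.4% down. Background could not be separated from expression, since no detection p-values were used, and this limits the folds of dim probes.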
